A study of Mus musculus with 15 samples.

Results

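The clustered protocadherins are cell-surface adhesion proteins encoded in 3 tandem arrays, alpha, beta and gamma, on mouse chromosome 18. They were taken from the count tables as every protein-coding gene whose symbol begins with Pcdha, Pcdhb or Pcdhg, which gave 55 genes of the 28391 listed in either table, 55 of them listed for the Lhx6 experiment and 54 for the Mtg8 experiment (Pcdha4 was in the former only). The tables describe YFP+ interneurons of the medial ganglionic eminence (MGE) lineage, sorted from the cortex of E14.5 mouse embryos, with 1 embryo per library. Controls of the Lhx6 experiment (n = 4) were Lhx6+/+ and mutants (n = 5) were Lhx6-/-, while controls of the Mtg8 experiment (n = 3) were Mtg8+/+ and mutants (n = 3) were Mtg8-/-. All of them carried the Nkx2-1-Cre transgene and the R26R-YFP reporter on a C57BL6/CBA mixed background, so that YFP marks cells with a history of Nkx2-1 promoter activity. Both mutations were germline, present in every tissue of the embryo. For Mtg8 the study's methods list a LacZ knock-in beside a conditional allele. The study cites the source of the knock-in for its germline loss-of-function mice, and describes the conditional allele for its crosses with Nkx2-1-Cre and Lhx6-Cre. Male and female embryos were used.

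The targeted genes were examined first. Lhx6 ranged from 5812 to 8441 normalized counts (reads divided by the size factor of the library) in Lhx6 controls and from 236 to 495 in Lhx6 mutants. Runx1t1, the gene that encodes MTG8, ranged from 7938 to 10264 in Mtg8 controls and from 12249.8 to 13934 in the libraries labelled Mtg8 mutant. Its loss was thus not seen in its counts, but counts per gene do not show where in the gene the reads fell. Sst, the somatostatin gene, ranged from 14420 to 18501 in Mtg8 controls and from 5683 to 8048 in the libraries labelled Mtg8 mutant, so that these groups did not overlap (log2 fold change −1.34 ± 0.19, SE, limma adjusted p = 0.0713). The latter are therefore called by their label throughout. Depth ran from 12218422 to 22053032 counted reads per library, and 1 read was worth between 0.764 and 1.24 normalized counts. Summed markers of MGE interneurons lay between 27635 and 72797 normalized counts in the 15 libraries, and those of microglia between 0 and 559. Markers of other cells were also present, with sums of 4984 to 19846 for pyramidal cells, 4623 to 13258 for radial glia and 1695 to 58166 for erythroid cells, the last highest in Lhx6 control 3 and there above the MGE interneuron sum of every Lhx6 library.

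Each alpha and gamma gene has its own promoter and a large variable exon that encodes the extracellular, transmembrane and proximal cytoplasmic parts of the protein, and this exon is spliced to constant exons that all genes of the array share. Beta genes consist of the variable exon alone. Most isoforms are chosen stochastically in each neuron, whereas the C-type isoforms, at the 3′ ends of the alpha and gamma arrays, follow other rules and are widely expressed. The proteins form mixed dimers on 1 membrane that recognise an identical set of isoforms on another, which serves the self-avoidance of neurites, and the gamma array, Pcdhgc4 above all, is known for keeping cortical interneurons alive. The libraries average many cells, so isoform choice in single cells was not seen, and fewer cells that use a gene and less RNA of it per cell cannot be told apart.

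The shared exons limit what was counted. Among the exons annotated in the tables (GRCm38), most alpha genes had 2860 bases in common with other alpha genes and most gamma genes had at least 2116 in common with other gamma genes. Reads from those bases fit several genes and may have been dropped, and the setting of the read counter that decides this is not given in the sources used here. The exon length that no other gene overlapped, on either strand, had a median of 2409 bases in alpha genes, 3718 in beta genes, 2573 in gamma A genes, 2692.5 in gamma B genes and 3028 in the 5 C-type genes. It was shortest in Pcdha4 (404 bases), whose variable exon is covered by the read-through gene Gm42416, in Pcdhb12 (1107 bases), which lies across the antisense gene Gm37446, and in Pcdhga11 (1256 bases). The symbol Pcdha11 stands on 2 rows, told apart by the identifiers ENSMUSG00000007440.10 and ENSMUSG00000102206.5, and the latter has 1268 such bases left outside the antisense genes Gm10545 and Gm10544.

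**Figure D1:**
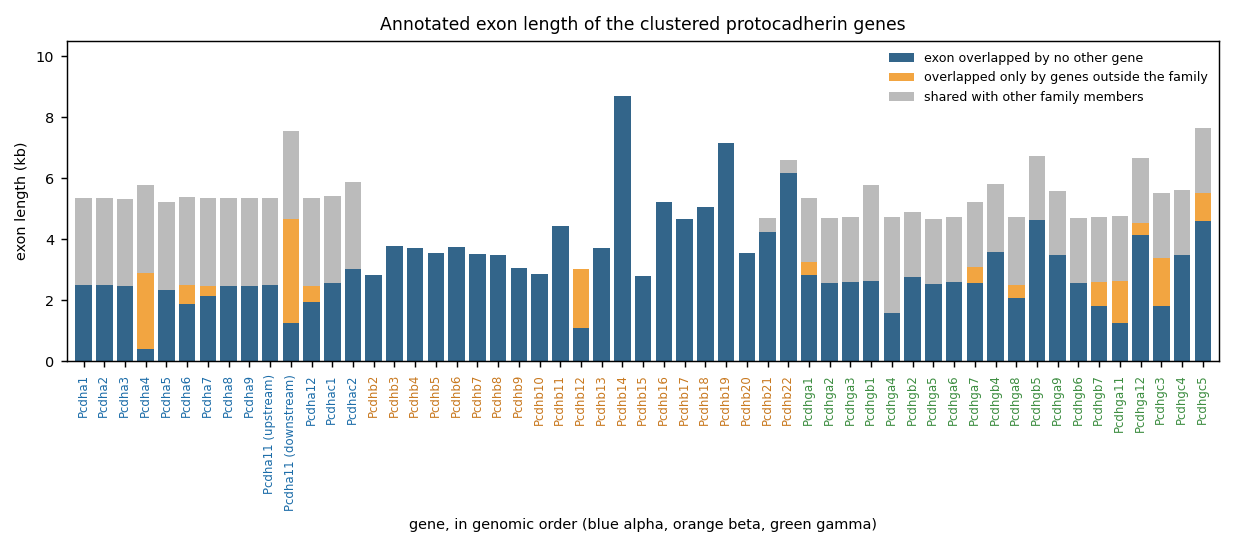
Annotated exon length of each clustered protocadherin gene in kb, stacked as bases overlapped by no other gene, bases overlapped only by genes outside the family, and bases shared with other members. Alpha and gamma genes carry a shared part that is nearly constant in length, 2860 and at least 2116 bases in most, and beta genes carry none apart from the 455 bases that Pcdhb21 and Pcdhb22 have in common.

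Similar variable exons were a smaller obstacle. Of the 75-base reads that could arise from the exon length without overlap, a median of 90.9% occurred in no other annotated transcript for alpha genes (lowest 82.7%), against 99.0% for beta, 100% for gamma A, 94.8% for gamma B and 100% for C-type genes. Levels between genes are given below per kb of exon length without overlap.

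In Lhx6 controls the highest level per kb was that of Pcdhb7 (chr18:37341702-37345202, plus strand, a single coding exon gene), at 102 ± 9.17 normalized counts per kb (SD, n = 4). Its 4 libraries, from 89.1 to 111 per kb, all lay above the highest value of the next gene, Pcdhb20, which ranged from 38.9 to 67.0 (48.0 ± 12.8). From Pcdhb20 downwards the neighbours in the order did not differ beyond their spread, with Pcdhb9 at 44.4 ± 7.19, Pcdha5 from 30.3 to 59.4 and Pcdhgc3 at 35.5 ± 13.3. The beta array held both the highest gene and, in Pcdhb14, whose annotated exon is the longest of the array, one of the lowest at 3.49 ± 1.74.

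The alpha genes led by Pcdha5, Pcdha6 (8.46 to 39.8) and Pcdha2 (24.9 ± 9.48) had a median of 22.5 per kb over the members tested. Their lowest gene was the Pcdha11 of identifier ENSMUSG00000102206.5, at 2.18 ± 1.39. Gamma A genes had a median of 10.6, with Pcdhga11 (30.4 ± 14.4), Pcdhga4 (16.7 ± 7.99) and Pcdhga12 (15.8 ± 7.48) highest and Pcdhga1 (1.25 to 5.08) lowest. The place of Pcdhga11 rests on its length, since 1381 of its bases lie across the antisense gene Gm26672 and 1256 were used, and per kb of all annotated exons it was at 8.02, rank 29 of the family instead of 7, below Pcdhga12 (9.78) and Pcdhga3 (8.07). Gamma B genes had a median of 11.4, between Pcdhgb6 (22.0 ± 5.28) and Pcdhgb5 (3.25 ± 3.04), with Pcdhgb7 (16.1 ± 6.68) and Pcdhgb1 (14.7 ± 6.56) below Pcdhgb6. The C-type genes ranked from 5 to 50 among the 55 members, with Pcdhgc3, Pcdhac2 (18.4 to 37.5) and Pcdhgc4 (25.4 ± 13.2) in the upper part and Pcdhac1 (6.16 ± 4.79) and Pcdhgc5 (3.82 ± 4.27) in the lower. Per kb of all exons Pcdhgc3 came at rank 17 instead of 5.

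Mtg8 controls had another order at the top. Pcdhgc3 (chr18:37806364-37841873, plus strand) stood first at 447 ± 85.1 normalized counts per kb (SD, n = 3), and its lowest library, at 378, lay above the highest value of Pcdhb7, 223 (208 ± 13.4). Pcdhb7, Pcdhga11 (204 ± 30.1) and Pcdhgc4 (189 ± 8.01) followed within each other's spread. The next gene, Pcdhgb6 (140.3 ± 29.5), lay below Pcdhgc4 in every library, and the neighbours after it overlapped down to Pcdhb15, which lay above Pcdhgc5 in every library. The lead of Pcdhgc3 rests on its length, since 1559 of its bases lie across the antisense gene BC037039 and were left out of the 1821 bases used, and per kb of all annotated exons it came after Pcdhb7, while Pcdhga11 went from rank 3 to 11. Pcdhgc5 (5.52 ± 2.06) and the ENSMUSG00000102206.5 row of Pcdha11 (3.72 ± 3.65) were the lowest.

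**Figure D2:**
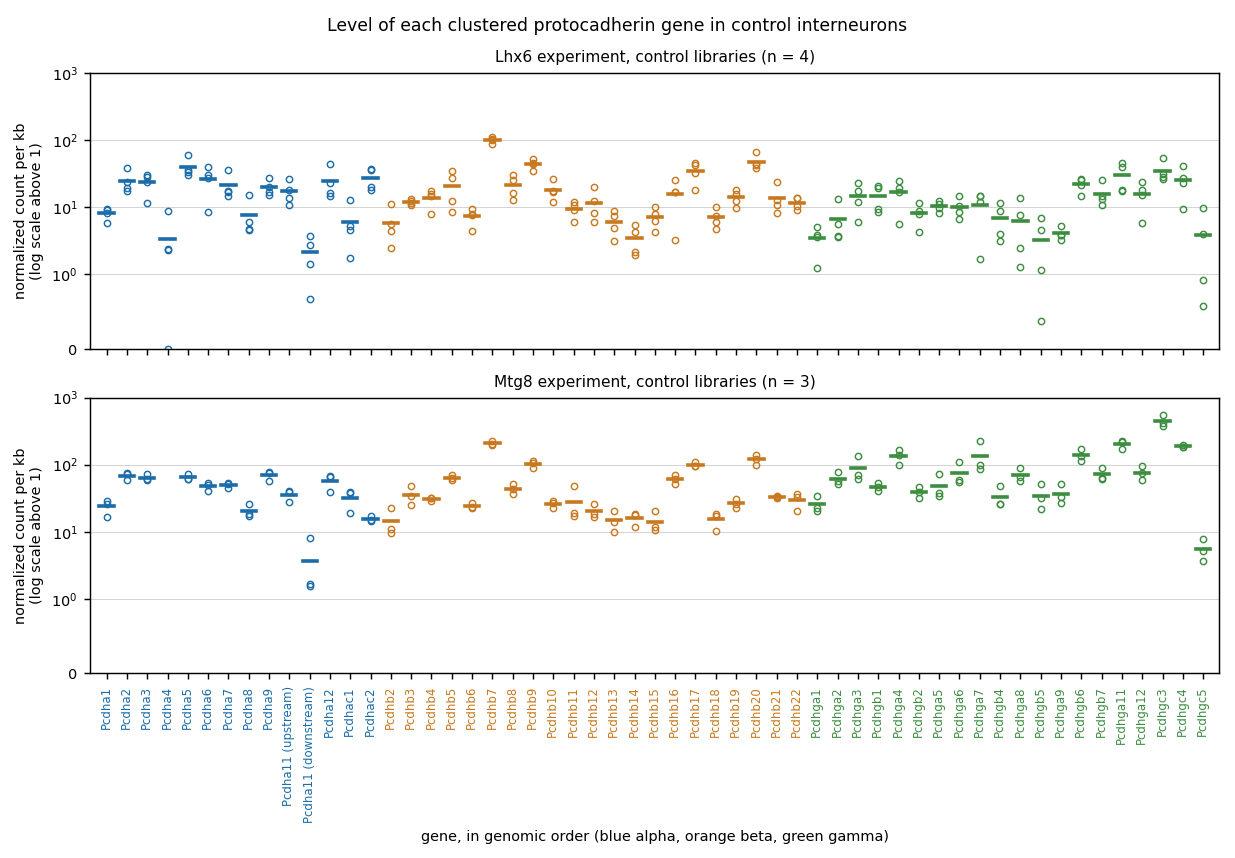
Level of each member in the control libraries, in normalized counts per kb of exon that no other gene overlaps, on an axis that is logarithmic above 1. Open circles are libraries and bars are means, and each panel is on the scale of its own table. Pcdhb7 stands alone at the top of the Lhx6 controls at 102 per kb, and Pcdhgc3 at the top of the Mtg8 controls at 447.

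Across the 53 members in both tables used for this comparison, the order of the levels per kb in the controls of the 2 experiments had a Spearman rho of 0.65, a description over genes of 2 shared library sets. Within arrays it was 0.91 over 21 beta genes, 0.88 over 20 gamma genes and 0.34 over 12 alpha genes.

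The share of the arrays was also unlike in the 2 control sets. Of the reads counted on the family, beta genes took 57.2 ± 3.73%, gamma genes 22.5 ± 2.82% and alpha genes 20.3 ± 2.33% in Lhx6 controls (SD, n = 4). In Mtg8 controls gamma genes took 46.3 ± 3.99%, beta genes 40.7 ± 2.80% and alpha genes 13.0 ± 1.22% (SD, n = 3). Reads on the exons that alpha or gamma genes share may be missing from these values. Per kb of exon without overlap the beta share was 45.8% in Lhx6 controls and 29.2% in Mtg8 controls. The gamma share of counted reads was 23.1 ± 3.73% in Lhx6 mutants (n = 5) and 45.3 ± 5.57% in libraries labelled Mtg8 mutant (n = 3). Single mutants lay outside the range of their controls, such as Lhx6 mutant 1 with an alpha share of 10.47% (controls 17.8 to 23.2%), Lhx6 mutant 6 with a gamma share of 17.3% (controls 19.7 to 26.4%) and labelled Mtg8 mutant 3 with 48.5% beta (controls 37.5 to 42.8%) and 39.0% gamma (controls 43.5 to 50.9%).

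On a scale common to both tables, RPM (reads scaled to the same total in every library), the whole family summed to 234, 143, 225 and 164 in Lhx6 controls 1 to 4. The Mtg8 controls 1, 2 and 4 summed to 512, 495 and 602, so that every one of them lay above every Lhx6 control. The gamma array made the largest difference, from 31.8 to 59.4 RPM in Lhx6 controls against 215 to 307 in Mtg8 controls. The tables were normalized separately, so these levels are set beside each other with no test, and the experiment and whatever else differed between the 2 sets cannot be told apart. Control 4 of the Mtg8 experiment has a library name without a date, as do all Lhx6 controls, Lhx6 mutant 6 and labelled Mtg8 mutants 3 and 4, whereas the other 7 libraries carry dated names, and what the style stands for is not given in the sources used here. That control had the highest of the sums.

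Gene by gene, 39 of 53 members had every Mtg8 control above every Lhx6 control in RPM, where 15.8% of 17196 genes did. Without Mtg8 control 4 the count was 42, beside 19.9%. Over all libraries of both experiments, mutants included, 5 members had every Mtg8 library above every Lhx6 library, beside 4.64% of all genes, and with labelled Mtg8 mutant 3 left out of that 20 did, beside 8.5%. The log2 ratio of Mtg8 to Lhx6 controls had a median of 0.92 over beta, 0.98 over alpha and 2.42 over gamma genes, and of −0.20 over all those genes. Pcdhgc3 was at 4.26 RPM in Lhx6 controls (3.24 to 6.63) and at 43.5 in Mtg8 controls (36.7 to 51.3), 10.2-fold apart, the second highest ratio of the 17196 genes. Pcdhga7 was 10.2-fold and Pcdhgc4 6.02-fold apart. Pcdhac2 went the other way, at 5.57 RPM in Lhx6 controls (3.74 to 7.50) and 2.51 in Mtg8 controls (2.34 to 2.79), and Pcdhgc5, at 1.16 and 1.37, overlapped between the sets. Marker sums were taken in normalized counts of each table, and these are not on 1 scale. The same RPM stood for more normalized counts in Mtg8 controls. The family sum of Lhx6 control 1 was 3533 normalized counts at 234 RPM, and that of Mtg8 control 1 was 9234 at 512 RPM. Whether the marker sums would lie apart in RPM was not examined. Those of MGE interneurons ran from 41681 to 52874 in Lhx6 controls and from 65265 to 72797 in Mtg8 controls. Those of radial glia ran from 7478.5 to 9485 and from 4623 to 6265, in the same order. The part of these in the difference was not tested.

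**Figure D3:**
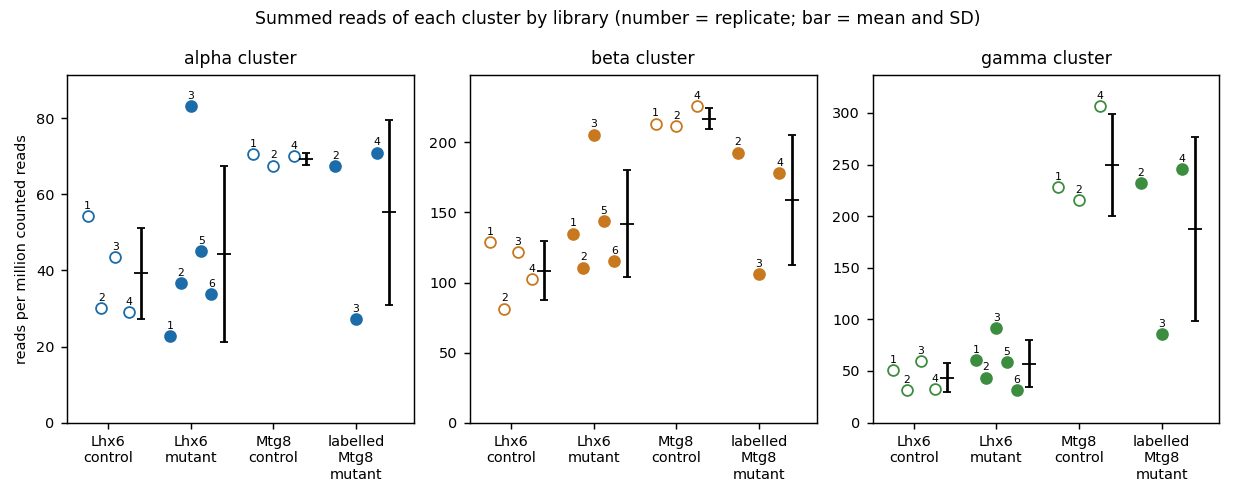
Reads of the alpha, beta and gamma arrays summed per library, in RPM, by group. Points are libraries with their replicate number, open for controls, and the bar beside each group is the mean with SD. Mtg8 controls lie above all Lhx6 controls in each array, Lhx6 mutant 3 is the highest library of its experiment, and labelled Mtg8 mutant 3 is the lowest of its own.

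The comparison of Lhx6 mutants with controls asks which genes depend on LHX6, the transcription factor of the MGE lineage. None of the 52 members tested was called by limma (adjusted p under 0.05 over all 16727 genes with a mean of at least 10 normalized counts), where 286 genes, 1.71%, were called (1.03% higher and 0.682% lower in mutants). Each library is 1 embryo, so p-values measure the spread between these embryos and their libraries, taken as independent. Lhx6 mutants 2 and 5 share all but the last number of their library names, and whether they share a litter is not given. Members had a median log2 fold change of 0.06, on the scale of log2(normalized count + 1) used for all fold changes here, which understates changes of low genes, against −0.04 over all genes tested, and 27 were higher and 25 lower. The median was 0.34 without mutant 1 and below 0 without mutant 3 (−0.26), control 2 (−0.08) or control 4 (−0.05). At an unadjusted p under 0.05 there were 6 members, all higher in mutants (Pcdhb14, Pcdhb18, Pcdhb19, Pcdhb21, Pcdhgc4 and Pcdhgc5), beside 12.7% of all genes with 7.11% in that direction and 5.63% in the other. On the recovered reads edgeR called 0 members of 280 genes (1.67%) and DESeq2 called 1, Pcdhb18, of 811 genes (4.53%).

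Pcdhb18 (chr18:37489465-37494505, plus strand) was the member with the lowest p. Its normalized counts were 37.5, 23.9, 51.6 and 30.8 in controls 1 to 4 and 69.3, 109, 54.0, 71.7 and 70.6 in mutants 1, 2, 3, 5 and 6. Every mutant lay above every control, with a log2 fold change of 1.06 ± 0.33 (SE, adjusted p = 0.162 by limma). Over 21 settings the adjusted p ran from 0.0442 (DESeq2) to 1.0, the latter with name style as a covariate, a fit that leaves mutant 6 as the sole mutant set against the controls, and the log2 fold change from 0.88 to 1.24.

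Pcdhb19 (chr18:37496991-37504128, plus strand), the next gene of the array, was the only other tested member with groups that did not overlap. It counted 114, 87.7, 129.9 and 71.0 in controls and 151, 152, 134, 155 and 239 in mutants (log2 fold change 0.72 ± 0.26, SE, limma adjusted p = 0.238). These 2 of 52 members compare with 3.19% of all genes that had every mutant above every control, and 0 members had every mutant below, against 3.03% (6.22% in either direction). Pcdhb21 read 46.1, 34.6, 103 and 54.7 in controls and 168, 107, 145, 127 and 58.2 in mutants, so that its groups overlapped (1.04 ± 0.38, limma adjusted p = 0.252).

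Other beta genes went either way. Pcdhb14 had 48.1, 16.8, 37.8 and 18.8 normalized counts in controls and 64.3, 62.9, 41.9, 55.2 and 57.0 in mutants (0.98 ± 0.38, limma adjusted p = 0.291). Pcdhb13 had the lowest fold change of the array, with 27.9, 11.5, 18.4 and 32.5 in controls and 1.24, 0.926, 28.9, 20.3 and 14.9 in mutants, of which 3 lay inside the range of the controls (−1.38 ± 0.88, limma adjusted p = 0.535). The abundant Pcdhb7 had a mean of 357 ± 32.1 in controls (SD, n = 4) and 503 ± 243 in mutants (SD, n = 5), the spread of the latter coming mainly from 916 in mutant 3. Over the 21 beta genes tested the median log2 fold change was 0.38, with 13 higher and 8 lower.

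Among the C-type isoforms, Pcdhgc4 (chr18:37815079-37841873, plus strand) counted 79.8, 96.6, 144 and 32.5 in controls and 182, 186, 340.0, 150.2 and 80.5 in mutants. Of the 5 mutants, 4 lay above all controls and mutant 6 lay among them (log2 fold change 1.12 ± 0.45, SE, limma adjusted p = 0.311). Pcdhgc5 had the largest positive fold change of the family, 1.90 ± 0.72 (limma adjusted p = 0.280), on few reads. Its normalized counts were 18.3, 2.66, 45.1 and 4.28 in controls and 29.7, 82.4, 24.2, 64.9 and 32.2 in mutants, so that control 3 lay above 3 of the 5 mutants.

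Pcdhgc3 had a fold change near 0, with 49.0, 57.6, 100.4 and 51.3 in controls and 45.8, 60.2, 117, 36.8 and 59.4 in mutants (−0.07 ± 0.37, limma adjusted p = 0.946). Within the C types the standard errors of the fold changes were largest for the alpha genes. Pcdhac1 ranged from 4.43 to 33.2 in controls and from 0 to 87.6 in mutants (0.18 ± 1.13). Pcdhac2 ranged from 55.8 to 113 in controls and from 1.24 to 222 in mutants (−0.77 ± 1.02), with the low value in mutant 1 and the high one in mutant 3.

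Alpha genes had a median of 0.10 over the 10 tested members that are not C types, with 6 higher and 4 lower. Pcdha5, their leading gene, counted 139, 79.8, 84.8 and 71.0 in controls and 44.5, 106, 239, 96.9 and 73.1 in mutants, with groups that overlapped throughout (0.08 ± 0.41, limma adjusted p = 0.943). Pcdha2 (−0.61 ± 0.45) and Pcdha6 (−0.18 ± 0.77) were likewise not called.

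Gamma A genes had a median of −0.69, with 2 of 10 tested members higher and 8 lower, and gamma B genes a median of 0.09 with 3 of 6 in each direction. Pcdhga3 had the lowest fold change of the family, with 60.6, 16.0, 45.1 and 30.8 in controls and 3.71, 0, 103, 32.0 and 9.91 in mutants (−1.65 ± 1.08, limma adjusted p = 0.548). Its lowest and its highest library were both mutants. Pcdhgb6 showed the same picture, at 65.4, 55.8, 67.2 and 37.6 in controls and 1.24, 31.5, 125, 30.0 and 19.8 in mutants (−1.31 ± 0.86, limma adjusted p = 0.548).

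Pcdhgb4 was the gamma gene outside the C types with the largest positive fold change. It counted 31.7, 11.5, 41.5 and 14.5 in controls and 118, 68.5, 97.8, 102 and 8.67 in mutants, with mutant 6 below every control (1.41 ± 0.69, limma adjusted p = 0.426). Without mutant 6 limma called 2 of 52 members, beside 491 of 16727 genes. They were Pcdhgb4 (2.07 ± 0.44, adjusted p = 0.0278) and Pcdhb22 (1.08 ± 0.25, adjusted p = 0.0399). Both calls came from leaving out the mutant with the lowest value of each gene. Mutant 6 is the sole Lhx6 mutant whose library name has the undated style of the controls, so that a fit with name style as a covariate gives the difference of this 1 library from the controls. It gave log2 differences of 1.01 for Pcdhb18, 1.28 for Pcdhb19, 0.05 for Pcdhgc4, −1.24 for Pcdhgb4 and −1.02 for Pcdhb22, and a median of −0.11 over the 52 members. Mutant 6 shares all but the last number of its library name with controls 1 and 2, and against these alone the values were 1.21, 1.25, −0.12, −1.07 and −0.98, with a median of −0.07. The study's methods describe mutants as littermates of controls, but the sources used here do not say which libraries share a litter. Mutant 6 also had the highest summed radial glia markers of the Lhx6 experiment (13258 normalized counts, controls 7478.5 to 9485) and the lowest sum of MGE interneuron markers (27635, controls 41681 to 52874). That list holds the deleted gene and Sst, and over its other 8 genes mutant 6, at 26114, lay inside the range of the controls (24738 to 33288). The part of the radial glia markers in these values was not tested.

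**Figure D4:**
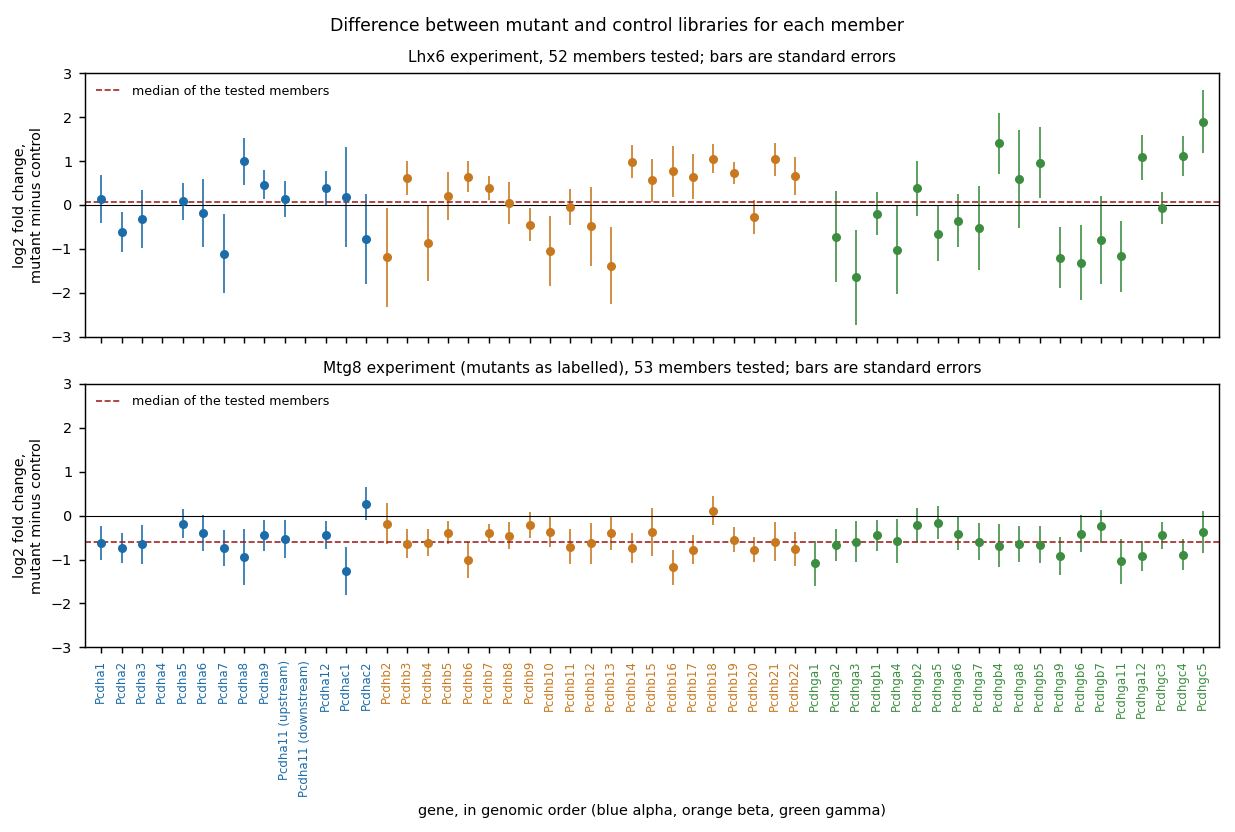
Log2 fold change of each tested member, mutant minus control, with its standard error, in genomic order for both experiments. Dashed lines are the medians of the tested members, 0.06 in the Lhx6 experiment, where points lie on both sides of 0, and −0.60 in the Mtg8 experiment, where all but 2 points lie below 0.

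The comparison of libraries labelled Mtg8 mutant with controls asks which genes depend on MTG8, a co-factor that binds LHX6. None of the 53 members tested was called by limma, and 0 of 16132 genes (0%) were. DESeq2 called 30 genes (0.152%) and edgeR 1 (0.0062%), with 0 members each. The members leaned to 1 side, with a median log2 fold change of −0.60 against −0.01 over all genes tested, and 51 of 53 had a value below 0, as did 51.5% of all genes. Without labelled mutant 3 the median over the members was −0.19, and 39 of them had a value below 0.

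At an unadjusted p under 0.05 there were 7 members, all lower in labelled mutants (Pcdhac1, Pcdhb6, Pcdhb16, Pcdhb17, Pcdhb20, Pcdhga12 and Pcdhgc4), beside 5.49% of all genes, with 2.44% in that direction and 3.06% in the other. Every labelled mutant lay below every control in 11 members, beside 5.52% of all genes, and above every control in 0, beside 4.68% (10.2% in either direction). They were Pcdha2, 7 beta genes (Pcdhb4, Pcdhb6, Pcdhb7, Pcdhb12, Pcdhb17, Pcdhb19 and Pcdhb20), Pcdhga1, Pcdhga12 and Pcdhgc4. With labelled mutant 3 left out the same 11 of 53 members lay below every control, beside 9.06% of all genes, and 1 member, Pcdhac2, lay above (8.56%). Leaving out a mutant cannot remove any of the 11, so this says nothing of their stability.

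Pcdhgc4 counted 643, 637 and 688 in Mtg8 controls 1, 2 and 4 and 555, 175 and 449 in labelled mutants 2, 3 and 4. The controls were close to each other and all labelled mutants lay below them (log2 fold change −0.89 ± 0.35, SE, limma adjusted p = 0.859). Without labelled mutant 3 it was −0.39, and other values were also nearer to 0, at −0.59 for Pcdhac1, −0.44 for Pcdhga1 and −0.69 for Pcdhb16, while without 1 or another of the remaining libraries Pcdhgc4 reached −1.22, Pcdhac1 −1.70, Pcdhga1 −1.45 and Pcdhb16 −1.66. Pcdhgc3 was at 765, 689 and 987 in controls and 759, 346 and 774 in labelled mutants, where mutants 2 and 4 lay inside the range of the controls (−0.45 ± 0.30, limma adjusted p = 0.870).

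Pcdhac1 had the lowest fold change of the family, at 99.5, 49.1 and 95.9 in controls and 44.2, 11.9 and 59.6 in labelled mutants (−1.26 ± 0.54, limma adjusted p = 0.859). Pcdhac2, with 43.6, 52.3 and 45.0 in controls and 72.5, 34.0 and 74.2 in labelled mutants, was 1 of the 2 members with a positive value (0.27 ± 0.38), the other being Pcdhb18 (0.12 ± 0.33). Pcdhgc5 stayed low, from 17.1 to 35.8 in controls and from 14.7 to 27.5 in labelled mutants (−0.37 ± 0.47). Among the C types, only the groups of Pcdhgc4 did not overlap.

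In the beta array, Pcdhb7 counted 689.7, 781 and 716 in controls and 628, 503 and 533 in labelled mutants, all of them below the controls (−0.40 ± 0.20, limma adjusted p = 0.859). Pcdhb20 counted 435, 348 and 495 in controls and 327, 165 and 277 in labelled mutants (−0.77 ± 0.29). Pcdhb16 had the lowest fold change of the array, with 273, 371 and 321 against 278, 71.7 and 141, labelled mutant 2 lying just inside the controls (−1.17 ± 0.40, limma adjusted p = 0.859). Pcdhb9 (−0.22 ± 0.29) and Pcdhb14 (−0.74 ± 0.35) overlapped between groups.

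All 17 gamma genes tested outside the C types had values below 0, from −1.09 to −0.16. Pcdhga12 counted 240.3, 312 and 388 in controls and 231, 95.6 and 193 in labelled mutants (−0.92 ± 0.34, limma adjusted p = 0.859). Pcdhga1, which missed the level filter in the Lhx6 table with a mean of 5.96, was at 63.7, 57.6 and 97.8 in controls and 55.5, 12.9 and 48.9 in labelled mutants (−1.09 ± 0.51). Pcdhga5 had the smallest difference, at 95.0, 85.3 and 185 against 112, 66.2 and 143 (−0.16 ± 0.38), and Pcdhga4 (−0.58 ± 0.51), Pcdhga11 (−1.04 ± 0.51) and Pcdhgb6 (−0.41 ± 0.42) overlapped between groups. The 10 alpha genes outside the C types, all below 0, had a median of −0.57, with Pcdha2 at 187, 147 and 183 against 131, 57.9 and 139 (−0.74 ± 0.35).

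In labelled Mtg8 mutant 3 and in Lhx6 mutant 3 most of the family was shifted at once. Labelled Mtg8 mutant 3 was the lowest library for 51 of 53 members, where it was lowest for 25.5% of all genes, and its members had a median log2 ratio to the control mean of −1.40 against 0.01 for all genes. Labelled mutants 2 and 4 had medians of −0.11 and −0.26. Control 4 was highest for 28 of 53 members, beside 14.8% of all genes. In the Lhx6 experiment mutant 3 was highest for 27 of 52 members, beside 19.3% of all genes, with a median of 0.96. Mutant 1 was lowest for 16 (27.8% of all genes) and mutant 2 for 13 (10.3%), with medians of −0.30 and −0.01.

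Other values of those libraries stand beside this. In labelled Mtg8 mutant 3 the 8 delta protocadherins, adhesion genes outside the arrays, had a median log2 ratio of −0.61, the 16 tested genes beside the arrays 0.06, and the 5680 genes with at least 5 kb of exon −0.25. Its summed markers of radial glia, 10790.4 normalized counts for 6 of 6 genes, lay above the controls (4623 to 6265), as did those of labelled mutants 2 and 4 (7293 and 6659), and its MGE interneuron markers, 40756 for 10 of 10 genes, below them (65265 to 72797), as they did in labelled mutants 2 and 4 (41516 and 57154). Most of that difference lay in Sst (a mean of 16695 in controls and 6615 in labelled mutants) and Dlx1 (19365 and 12630.3), and of the 10 log2 fold changes 8 were below 0 (Gad1, −0.07), with Dlx2 (0.99) and Nkx2-1 (0.18) above 0. Over the 8 genes other than Lhx6 and Sst labelled mutants 2 and 3, at 28777 and 24042, lay below the controls (41469 to 44806) and labelled mutant 4, at 43086, lay among them. Pyramidal cell markers had log2 fold changes above 0 for 7 of 7 genes (median 0.70, 0 called), with sums of 4984 to 12381 in controls and 7711 to 19846 in labelled mutants. Markers of oligodendrocyte precursors were above 0 for 3 of 3 tested genes (median 2.05, 0 called), with sums of 6.4 to 272 and 41.9 to 492. In Lhx6 mutant 3 the delta protocadherins were at −0.17, the 18 tested neighbours at −0.10 and 5751 long genes at 0.16. Its markers of oligodendrocyte precursors summed to 325 (controls 52.2 to 93.0) and those of microglia to 289.7 (controls 23.9 to 111), with 4 of 4 listed genes in the table for each. Over the 8 MGE interneuron genes other than Lhx6 and Sst, Lhx6 mutant 3 had the highest sum of its experiment, 44568 (controls 24738 to 33288). Its sums lay below the controls for radial glia, 6338 (controls 7478.5 to 9485), and for pyramidal cells, 10263 (controls 12203 to 17699). The part of these in the results was not tested.

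The style of library names gave a partial split of the Mtg8 experiment. With dated names alone (controls 1 and 2, labelled mutant 2, which also share all but the last number of the name) the median log2 difference over 53 members was −0.08, with 29 below 0. Over all 16132 genes tested it was −0.01, with 8297 below 0. With undated names alone (control 4, labelled mutants 3 and 4) the median over the members was −1.02, with 52 below 0, beside −0.01 over all genes, with 8313 below 0. The values for Pcdhgc4 were −0.20 with dated and −1.29 with undated names. No group of either style had more than 2 libraries, so neither value was tested.

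**Figure D5:**
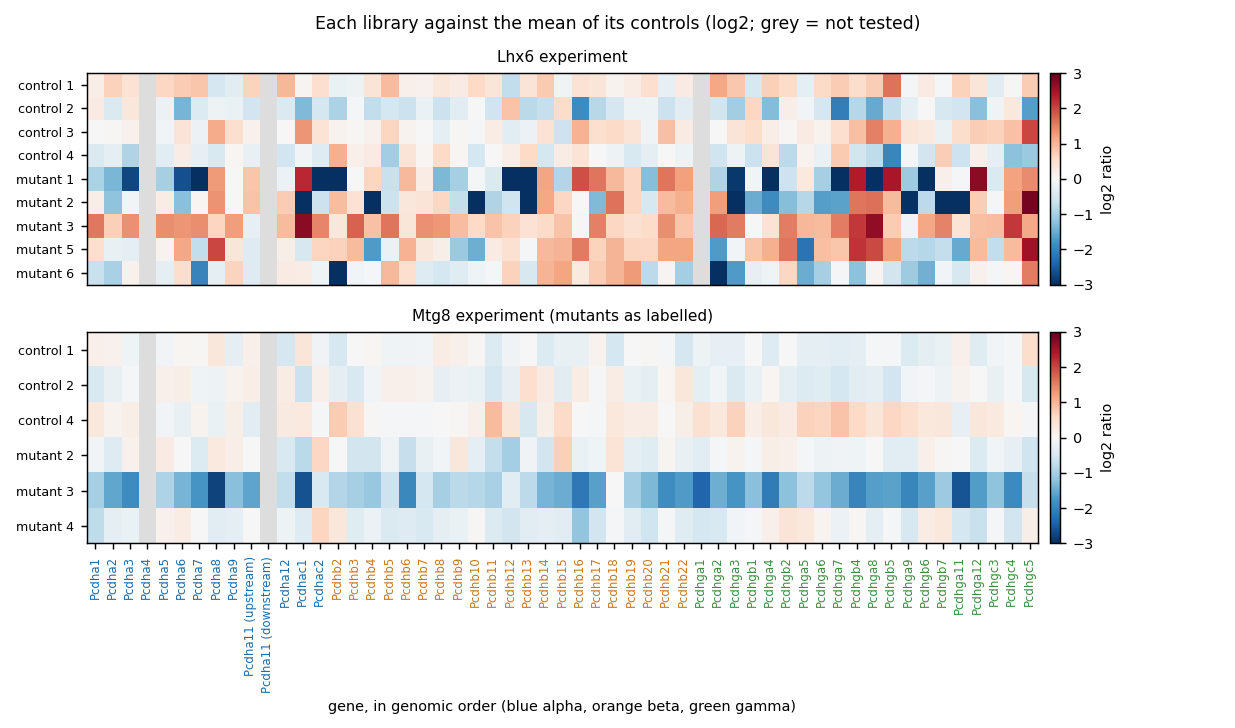
Log2 ratio of every library to the mean of the controls of its experiment, for each member in genomic order, grey where the member was not tested. Labelled Mtg8 mutant 3 is blue across nearly the whole family (median −1.40) and Lhx6 mutant 3 red (median 0.96), while Lhx6 mutant 1 is the lowest library for 16 members and the highest for 8.

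Replicates of 1 group varied more for these genes than for genes at large. The SD within groups, on the log2 scale, had a median of 0.96 over the 52 members in the Lhx6 experiment against 0.40 over all genes tested, and of 0.58 over 53 members in the Mtg8 experiment against 0.33. The members were also lower, with a median of 45.6 and 123 normalized counts against 233 and 264 for all genes. In Lhx6 mutants 8 of 52 tested members had a library with 0 reads, beside 5.89% of all genes over the 9 libraries. They were Pcdhac1, Pcdhb2, Pcdhb12, Pcdhga2, Pcdhga3, Pcdhga4, Pcdhga8 and Pcdhgb7, and the zeros lay in mutants 1, 2 and 6. Pcdhga3, for example, had 0 reads in mutant 2, a count that allows up to 3 reads, and 103 normalized counts in mutant 3. None of the 53 members had a library without reads in the Mtg8 experiment (0.657% of all genes).

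Members near the level filter were few. Pcdhga9 passed it in the Lhx6 table at a mean of 10.1 and Pcdhb12 at 12.8, while Pcdhga1 (5.96), Pcdha4 and the ENSMUSG00000102206.5 row of Pcdha11 did not. Pcdha4 was at 0.961, 3.55, 0.921 and 0 in controls and at 13.6, 0.926, 2.79, 0 and 0 in mutants.

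Genes that act with the arrays were looked at from fixed lists. Of 18 factors of chromatin looping and DNA methylation at the arrays, such as Ctcf, which sets the enhancer contacts of the promoters, 18 were tested and 0 were called in either experiment. Their median log2 fold change was 0.27 in Lhx6 mutants, with 16 of 18 above 0, and −0.07 in libraries labelled Mtg8 mutant. Tet1, an enzyme of DNA demethylation, was nearest to the threshold, at 674 ± 103 in Lhx6 controls and 1225 ± 304 in mutants (0.84 ± 0.19, limma adjusted p = 0.0519), and edgeR (adjusted p = 0.0451) and DESeq2 (adjusted p = 0.00192) called it. So did limma with a pseudocount of 10 (adjusted p = 0.0446), a minimum mean of 50 (0.0402), TMM factors (0.0479) or without mutant 6 (0.0128). Limma did not call Tet1 with a pseudocount of 0.5 (adjusted p = 0.0544), no filter on low values (0.0622), equal totals (0.0573) or no trend (0.140). Nor did limma call it without any other single library (adjusted p from 0.0605 to 0.206) or with the replicate block (0.86 ± 0.24, adjusted p = 0.298). In mutant 6 alone against the controls, the fit with name style as a covariate, the value was 0.32 ± 0.28 (limma adjusted p = 1.0). In libraries labelled Mtg8 mutant Tet1 was at −0.59 ± 0.28.

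Of 22 intracellular partners, among them the kinases and actin regulators that bind the cytoplasmic parts, 20 were tested and 0 called, with medians of 0.02 in Lhx6 mutants and −0.06 in libraries labelled Mtg8 mutant. Of 10 genes of apoptosis, 0 were called, with medians of −0.10 and −0.01 in the same order, and Bbc3 was at −0.47 ± 0.42 and 1.13 ± 0.65, the latter between means of 6.07 and 15.1 normalized counts. Of 4 membrane partners 3 were tested and 0 called, with all 3 above 0 in Lhx6 mutants and all 3 below 0 in libraries labelled Mtg8 mutant (Nlgn2, 0.59 ± 0.28 and −0.53 ± 0.21). Of 20 genes beside the arrays 18 were tested for Lhx6 and 16 for Mtg8, with 0 called and medians of −0.17 and −0.09 (Dnd1, 1.44 ± 0.94 in Lhx6 mutants, not tested for Mtg8). Nearest to the threshold was Taf7, from 703 to 820 normalized counts in Lhx6 controls and from 981 to 1376 in mutants (0.61 ± 0.14, limma adjusted p = 0.0566). In Lhx6 mutants 13 of the 18 tested neighbours had a value below 0. Taf7 was at −0.10 ± 0.24 in libraries labelled Mtg8 mutant. The 8 delta protocadherins held the sole call of these lists, Pcdh9, from 509 to 921 normalized counts in Lhx6 controls and from 1479.6 to 3639.9 in mutants (1.72 ± 0.24, limma adjusted p = 0.00203), and with name style as a covariate, that is in mutant 6 alone against the controls, the value was 1.09 ± 0.35 (limma adjusted p = 0.478). In libraries labelled Mtg8 mutant Pcdh9 was at 0.12 ± 0.38.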

How the data were processed

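RNA-seq was analysed for 15 libraries, grouped by the sample titles. The authors trimmed 75-base single reads (fastp 0.20.1), aligned to GRCm38.p6 (STAR 2.7b), counted reads per gene with featureCounts 1.6.4, filtered sex-linked genes and normalized with DESeq2 (tools and versions per the labels and the study's methods). Strand and multi-mapping settings are not given in the sources used here. The signal the authors deposited is the count divided by a size factor, in 1 table per experiment. Their fold change and p-value columns were not used. Values were whole multiples of 1 read in 100% of cases within 0.01 reads, or 1e-05 of the count where that is more, so reads were recovered.

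Each table was fitted alone with limma 3.58.1 (R 4.3.3), with the mean-variance trend, after adding 1 and taking log2, on genes whose mean reached 10, two-sided, with Benjamini-Hochberg adjustment over all genes tested and a threshold of 0.05. The analysis plan foresaw normalized values, and edgeR 4.0.16 and DESeq2 1.42.0 on recovered reads were alternatives, beside other pseudocounts, filters, scalings, blocks and left-out libraries. Scripts were tested on simulated data. The number of embryos limits precision, and depth is given as counted reads.

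Members and lists were chosen with earlier results of these data known. Named genes were the 5 C types, the 3 highest and the lowest gene of each other subgroup in Lhx6 controls, any called member, the 3 largest changes in each direction per table, called genes of the other lists or else their largest change, and the targeted genes, of which 1 listed gene is not reported here. Further members, and Taf7 among the listed genes, are named where their p or non-overlap singled them out, after their values were seen. For exon overlaps, the members' exon positions in the tables (GENCODE M23) were set against the exons of other genes in GENCODE M21, of the same build. Uniqueness of 75-base reads came from GENCODE M21 transcripts, in which all 55 members have the same exons. Pcdhb1 and Pcdhga10 were not analysed here, and Pcdhgb8 was left out because its gene type is not protein-coding.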

Additional observations from a re-analysis of the deposited data

Results flagged for a closer look

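In the Lhx6 groups of 4 controls and 5 mutants, a single library stood far from the rest of its group for some named members. Pcdhgc3 did so in both groups, at 100.4 normalized counts in control 3 and at 117 in mutant 3. Mutant 3 was also far above the other mutants for Pcdhb9 (255) and Pcdhgb6 (125). Mutant 1 was far above for Pcdhga12 (387), and mutant 5 for Pcdhga1 (12.6), where the other mutants had at most 1 read. Of 55 members examined per group, 3 were flagged in controls and 7 in mutants. Chance flags about 1 group in 20 where values are normally distributed, which these untransformed counts need not be. The members also share libraries, so their flags are not independent. Groups of 3 in the Mtg8 experiment were not examined in this way.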

How the results depend on the processing

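No member was called under other pseudocounts, filters, scalings, the fit without trend, edgeR, name style as a covariate or the replicate block, and DESeq2 called 1 (Pcdhb18) for the Lhx6 experiment. All genes called there numbered 811 by DESeq2, 86 with the replicate block and 57 with name style as a covariate (for Lhx6 a fit of mutant 6 alone against the controls), and for the Mtg8 experiment 1 without a filter, 2 at a minimum mean of 50, 1 by edgeR, 30 by DESeq2 and 100 with the replicate block. Leaving out 1 library gave 159 to 491 of 16727 genes and 0 to 2 of 52 members for Lhx6 (491 and 2 without mutant 6, 159 without control 1, 174 without control 2, 173 without control 4). For Mtg8 it gave 0 to 86 of 16132 genes (86 without labelled mutant 2) and 0 members. The median over members then ran from −0.26 (without mutant 3; also below 0 without control 2 or 4) to 0.34 (without mutant 1) and from −0.79 (without labelled mutant 2) to −0.19 (without labelled mutant 3), and in the Lhx6 experiment it was 0.39 at a minimum mean of 50 and 0.24 by edgeR and by DESeq2. Numbers did not pair the Lhx6 samples (correlations of −0.15, 0.00 and 0.07, where not every library correlated best with its own number). For Mtg8 the same-number correlations, 0.14 and 0.16, were the highest between a control and a labelled mutant, the next being 0.08. With only 2 pairs this does not decide whether numbers pair the Mtg8 samples. That pairing leaves out labelled mutant 3 and control 1, and with it the median became −0.19.

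Per kb of all exons 6 of the 10 highest members in Lhx6 controls stayed among the 10 highest. Per kb without overlap the shares of alpha, beta and gamma became 26.5%, 45.8% and 27.7% in Lhx6 controls and 15.7%, 29.2% and 55.1% in Mtg8 controls. With 2 libraries left out (Lhx6 mutants 1 and 3, chosen after seeing the data), 8 members did not overlap, 4 in each direction, beside 7.62% and 7.82% of all genes. The 39 members higher in Mtg8 controls became 42 without control 4 (beside 19.9% of all genes), 5 over all libraries (4.64%) and 20 over all but labelled mutant 3 (8.5%), also chosen after seeing the data, as were the comparisons within libraries of nearly the same name and the marker sums without Lhx6 and Sst.

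Fold changes of uncalled genes turned sign as follows, and the cause was not tested. For Lhx6, edgeR gave 0.17 for Pcdhac2, 0.24 for Pcdha6 and 0.048 for Pcdhgb7, DESeq2 gave 0.17, 0.24 and 0.062, and the replicate block gave 0.063 for Pcdhgc3 and 0.18 for Pcdhga5. With name style as a covariate, and so for mutant 6 alone against the controls, the values were −0.30 for Pcdha5, 0.53 for Pcdha6, −0.38 for Pcdhb7, −0.55 for Pcdhgb5, −1.24 for Pcdhgb4, −1.02 for Pcdhb22, −0.10 for Nlgn2, 0.092 for Bbc3 and −0.23 for Dnd1. For Mtg8, the replicate block gave 0.061 for Pcdhgc5, 0.15 for Pcdha5, 0.15 for Pcdha6, 0.15 for Pcdhb9, 0.065 for Pcdhgb6, 0.076 for Pcdhgb7, 0.011 for Pcdhga5 and −0.081 for Pcdhb18. With a single Lhx6 library left out, values spanned −0.64 to 0.43 for Pcdha6, −0.45 to 1.17 for Pcdhac1, −0.46 to 0.12 for Pcdhgb1, −0.31 to 0.16 for Pcdhgc3, −0.25 to 0.35 for Pcdha5, −1.33 to 0.33 for Pcdhac2 and −1.38 to 0.21 for Pcdhgb7. With a Mtg8 library left out they spanned −0.15 to 0.27 for Pcdhb18, −0.41 to 0.18 for Pcdhga5, −0.31 to 0.62 for Pcdh9, −0.40 to 0.18 for Pcdha5, −0.69 to 0.12 for Pcdha6, −0.51 to 0.077 for Pcdhb9, −0.96 to 0.17 for Pcdhga4, −0.73 to 0.20 for Pcdhgb6, −0.53 to 0.17 for Pcdhgb7 and −0.93 to 0.0016 for Pcdhga3.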
